A study of Mus musculus with 18 samples.

Results

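The response to bexarotene was followed in aged mice that had a stroke, in the 6 of 18 libraries that the column names of the count table place there: 3 of bexarotene-treated and 3 of vehicle-treated animals. All 6 came from male wild-type (WT) mice aged 18 to 20 months, with ischemic stroke made by occlusion of the middle cerebral artery (MCAo). Their strain is not stated. Bexarotene was injected into the peritoneum at 5 mg/kg, starting 24 hours after the operation and repeated once on each of 2 more days, while vehicle mice were given saline with 3% DMSO. Cells were taken on day 3 from whole dissociated brain, depleted of Ly6G-bearing neutrophils on beads and then selected on CD11b beads, so that the injured and uninjured parts of the brain were mixed. The other 12 libraries were of mice without stroke, young (2 to 4 months) or aged, each with bexarotene or vehicle, 3 per group, and it is not stated whether those animals had sham surgery.

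Bexarotene is an agonist of the retinoid X receptors (RXR), nuclear receptors that bind DNA mostly as the shared partner of other receptors. With the liver X receptors (LXR) they drive genes of cholesterol export, with the retinoic acid receptors (RAR) genes of retinoid handling and differentiation, and with the peroxisome proliferator-activated receptors (PPAR) genes of fatty acid use and storage. After a stroke, resident microglia and blood-derived macrophages take up dead cells and myelin, which loads them with cholesterol, and they also make the cytokines and growth factors of the injured tissue.

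The stroke libraries held 16206144 to 29359943 counts, against 7582511 to 11852638 without stroke, and 0.484% to 0.670% of their counts were mitochondrial. The microglial genes P2ry12 (1659 to 2939 CPM, counts scaled to the library total) and Tmem119 (1510 to 2145 CPM) and the monocyte receptor gene Ccr2 (422 to 1004 CPM) were abundant in all 6, which the labels call microglia/macrophages. Levels are given below as CPM, in the order of libraries 1, 2 and 3 of a group, and compare one gene between libraries only, since they are not divided by gene length. On the leading principal component (30.7% of the variance) vehicle libraries were at -54.4, -3.77 and -9.52 and bexarotene libraries at 19.1, 35.7 and 12.8. The groups did not overlap on it, and vehicle library 1 stood apart from the other 5. The mean log2 CPM of choroid plexus markers put all 6 libraries in the same order as this component. It was 5.41, 3.55 and 3.91 with vehicle and 2.91, 0.78 and 3.27 with bexarotene. Treatment and choroid plexus level thus cannot be told apart on this component. Vehicle library 1 had the highest level of choroid plexus transcripts and bexarotene library 2 the lowest. Bexarotene library 3 had the highest level of neutrophil transcripts, with values below.

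Bexarotene changed few genes past the threshold after stroke. Of 15528 genes tested, 8 were higher and 1 was lower in the bexarotene libraries at an adjusted p under 0.05 (edgeR quasi-likelihood test, BH adjustment over all genes tested), which is 0.058% of the genes (0.0515% higher and 0.00644% lower). Among those that rose were Abcg1, St3gal5, Epha2, Mmd, Rnf145, Engase and Hic1, and the 1 that fell was Frmd6. In all 9 the 3 bexarotene libraries lay on one side of the 3 vehicle libraries, as they did for 11.3% of all genes tested (5.81% higher and 5.48% lower), and 6.36% of all genes had an unadjusted p under 0.05. By the same test 40 genes (0.258%) were called in aged mice without stroke and 79 (0.509%) in young mice. The number depended on single libraries and on the tool: it was 4, 1 and 6 without vehicle libraries 1, 2 and 3, and 5, 17 and 2 without bexarotene libraries 1, 2 and 3. DESeq2 on the 18 libraries called 59 genes and limma voom 29, all 9 among them in each case, and Abcg1 was the only gene called in each of the 16 alternatives run.

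**Figure D1:**
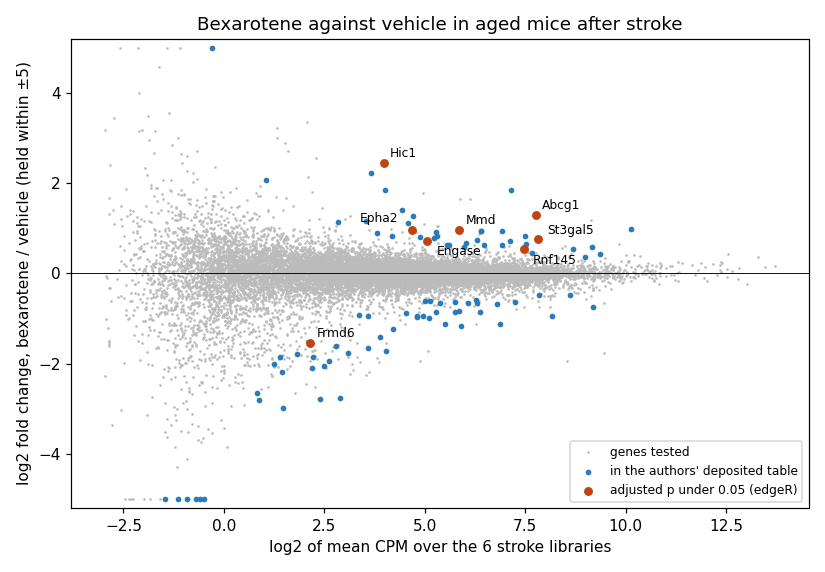
Each point is a gene, with its mean level in the 6 stroke libraries (log2 CPM) on the x axis and its log2 fold change, bexarotene over vehicle, on the y axis; blue points are the genes of the authors' deposited table, orange points 8 of those called here, and genes under a log2 level of -3 are left out. The named genes lie at log2 fold changes of 0.55 to 2.44 above the line, with Frmd6 alone below it at -1.55.

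The promoter of 1 called gene is shown because the recognition element of these receptors is a short core motif, AGGTCA, that can be searched for. Among the 7 called genes with a promoter window in RefSeq (GRCm38.p6; the counts were made on GRCm39), the 250 bases before the start held the core motif on either strand in 1, Epha2 (14.3%), and 15.8% of all genes with such a window held it. Below, the capitals mark TGACCT, the core motif read on the opposite strand, which ends 127 bases before the annotated start in chr4:141300971-141301220 (plus strand).
Epha2 promoter: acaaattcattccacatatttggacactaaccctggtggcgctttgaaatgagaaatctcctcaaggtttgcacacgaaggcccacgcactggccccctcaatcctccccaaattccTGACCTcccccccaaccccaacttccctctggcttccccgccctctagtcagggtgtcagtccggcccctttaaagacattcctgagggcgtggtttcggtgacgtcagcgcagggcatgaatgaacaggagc
The core motif repeated in 1 direction with 1, 4 or 5 bases between, the arrangements that RXR pairs with PPAR, LXR and RAR bind, was found in the windows of none of the 7, and of 11, 4 and 3 of 27025 genes in all. A match of letters is no evidence of binding, and windows this short leave out introns and distal elements.

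Among 16 tested targets of LXR and RXR, 1 was called (0.0515% of all genes were called as higher). At an unadjusted p under 0.05, 7 had a higher level with bexarotene (2.95% of all genes did) and none a lower level (3.41% of all genes). The list's median log2 fold change was 0.14, against 0.00 over all genes. Abcg1, which passes cholesterol from the cell to lipoprotein particles, was at 126, 112 and 141 CPM with vehicle and at 268, 297 and 357 CPM with bexarotene. It rose 2.435-fold in the edgeR fit, with a log2 fold change of 1.28 ± 0.13 (SE, 3 libraries per group) and an adjusted p of 1.58e-04 (edgeR quasi-likelihood). Every treated library was well above the vehicle range.

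Its partner Abca1, which loads cholesterol onto lipid-poor apolipoproteins, was at 423, 459 and 510 CPM with vehicle and at 631, 661 and 781 CPM with bexarotene. The groups did not overlap, but the log2 fold change of 0.58 ± 0.14 did not pass the threshold (adjusted p = 0.23, edgeR quasi-likelihood). Mylip encodes a ubiquitin ligase that sends the LDL receptor to degradation. It was at 131, 137 and 126 CPM with vehicle and at 227, 177 and 289 CPM with bexarotene, a log2 fold change of 0.82 ± 0.16 (adjusted p = 0.097). Arl4c, a small GTPase linked to cholesterol transport, had a log2 fold change of 0.59 ± 0.15 (adjusted p = 0.24) and did not overlap either. Eepd1, an LXR-induced gene that promotes cholesterol efflux in macrophages, ranged from 22.7 to 30.7 CPM with vehicle and was at 33.9, 65.7 and 53.0 CPM with bexarotene, with a log2 fold change of 0.93 ± 0.25 (adjusted p = 0.34). Library 1 of the treated group stood only a little above the vehicle range for this gene.

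The lipogenic and lipoprotein genes of the list were not called. Srebf1, the master regulator of fatty acid synthesis, had a log2 fold change of 0.06 ± 0.12, and its groups overlapped (62.0 to 75.0 CPM with vehicle and 63.0 to 86.3 CPM with bexarotene). Apoe, which encodes the main lipoprotein of the brain, was at 5128, 4182 and 5518 CPM with vehicle and 6062, 6655 and 4709 CPM with bexarotene, so that 1 treated library fell within the vehicle range (log2 fold change 0.23 ± 0.23, adjusted p = 0.97). Lpcat3, which remodels membrane phospholipids, was at 0.21 ± 0.09 on the same scale. Apoc1, an apolipoprotein gene of low level here, did not overlap, at 4.13, 2.31 and 4.62 CPM with vehicle and 5.82, 8.77 and 4.82 CPM with bexarotene (0.80 ± 0.38, adjusted p = 0.77, edgeR quasi-likelihood).

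**Figure D2:**
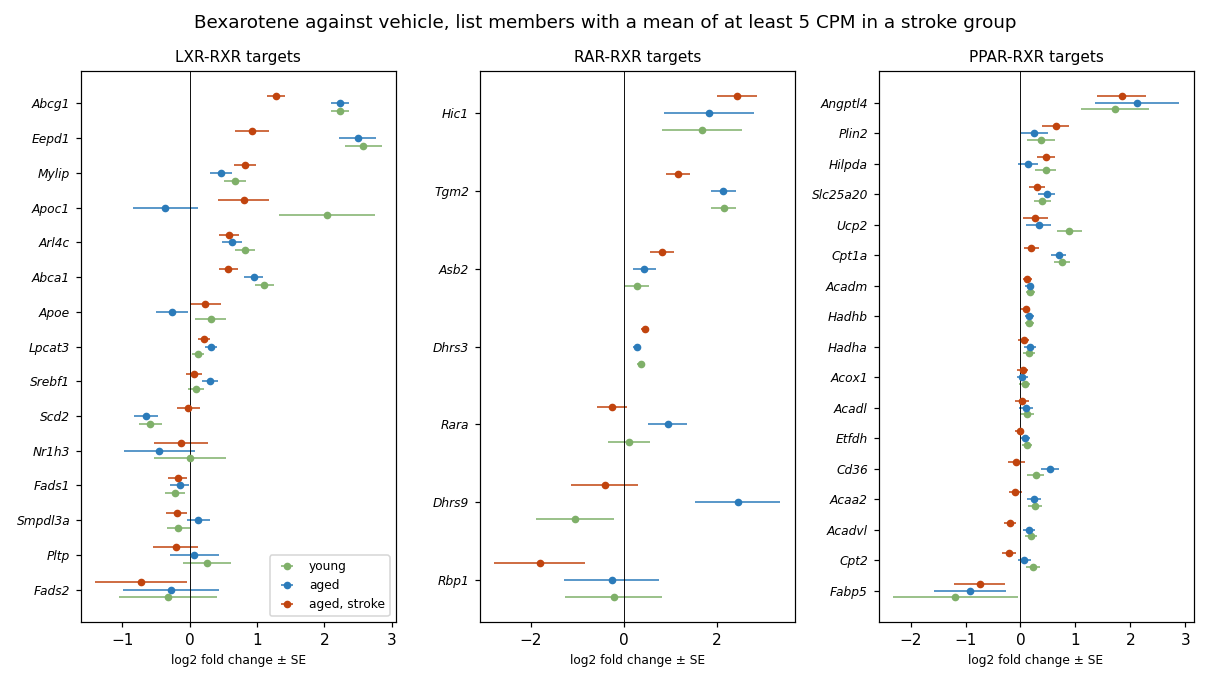
Log2 fold change of bexarotene over vehicle with its SE (x axis) for the list members with a mean of at least 5 CPM in a stroke group, in young mice (green), aged mice (blue) and aged mice after stroke (orange), 3 libraries per group. Abcg1 and Eepd1 lie near 2.2 and 2.5 without stroke and at 1.28 and 0.93 with it, and the fatty acid oxidation genes lie close to 0 after stroke.

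Of 8 tested targets of RAR and RXR, 1 was called (0.0515% of all genes were called as higher). A higher level at an unadjusted p under 0.05 was seen in 4 (2.95% of all genes). Each of the 4 was without overlap between groups, as were 5.81% of all genes on that side. The other 4 had negative log2 fold changes, and the median was 0.10. Hic1, a zinc finger repressor that retinoic acid is known to induce, was at 5.80, 3.96 and 4.94 CPM with vehicle and at 25.7, 37.5 and 17.2 CPM with bexarotene. It rose 5.44-fold in the edgeR fit, by 2.44 ± 0.44 on the log2 scale (adjusted p = 0.047, edgeR quasi-likelihood). In aged mice without stroke Hic1 was at or below the floor in the 3 vehicle libraries, at a mean of 0.12 CPM, where 3 counts correspond to 0.282 to 0.293 CPM (0.102 to 0.185 CPM in stroke libraries).

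Tgm2, a transglutaminase that is a classic retinoid-induced gene of macrophages, was at 439, 238 and 360 CPM with vehicle and 645, 1192 and 503 CPM with bexarotene. The groups did not overlap, bexarotene library 2 was the highest, and the log2 fold change of 1.17 ± 0.25 did not pass the threshold (adjusted p = 0.17, edgeR quasi-likelihood). Dhrs3, which reduces retinal to retinol and so restrains retinoic acid supply, was at 180, 152 and 186 CPM against 237, 241 and 232 CPM (log2 fold change 0.46 ± 0.09, adjusted p = 0.097). Asb2, a ubiquitin ligase subunit, had a log2 fold change of 0.82 ± 0.26 (adjusted p = 0.45). The catabolic genes Cyp26a1 and Cyp26b1 and the receptor gene Rarb did not pass the filter on counts and were not tested. Their highest levels in any stroke library were 3.85, 0.183 and 0.428 CPM.

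None of 21 tested targets of PPAR and RXR was called. At an unadjusted p under 0.05, 3 were higher and 2 lower (2.95% and 3.41% of all genes), and the median was 0.02. Angptl4, a secreted inhibitor of lipoprotein lipase, was at 10.9, 5.00 and 4.99 CPM with vehicle and 22.5, 24.5 and 28.5 CPM with bexarotene. Its log2 fold change was 1.85 ± 0.45 (adjusted p = 0.23, edgeR quasi-likelihood), and every treated library was above every vehicle library. The lipid droplet genes Plin2 (0.65 ± 0.24) and Hilpda (0.47 ± 0.17) also had groups that did not overlap, with adjusted p of 0.63 and 0.57 in the same test. Cpt1a, the gate of fatty acid entry into mitochondria, was at 0.20 ± 0.13, and the scavenger receptor gene Cd36 at -0.07 ± 0.15. Pdk4, which turns off pyruvate oxidation, lay between 0 and 2.55 CPM in the 6 libraries, too close to the floor for a fold change to be read.

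The receptors themselves did not pass the test: 0 of 18 tested genes of RXR and its partners was called by edgeR, 1 had an unadjusted p under 0.05, and their median log2 fold change was -0.02 (-0.015 before rounding). Rxra ranged from 50.3 to 62.6 CPM with vehicle and from 48.4 to 57.6 CPM with bexarotene (-0.14 ± 0.11). Rxrb ranged from 53.7 to 65.3 CPM and from 59.4 to 69.2 CPM (0.08 ± 0.10). The gene with an unadjusted p under 0.05 was Pparg, at 5.995, 3.53 and 5.88 CPM with vehicle and 2.88, 2.37 and 2.46 CPM with bexarotene (-0.996 ± 0.396, adjusted p = 0.65).

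The other called genes described here lay outside the receptor target lists. St3gal5, the synthase of ganglioside GM3, was at 176, 172 and 159 CPM and at 264, 251 and 346 CPM, a rise of 0.76 ± 0.12 on the log2 scale (adjusted p = 0.028, edgeR quasi-likelihood). Epha2, a receptor tyrosine kinase of the ephrin family, was at 17.2, 16.2 and 18.3 CPM and at 32.8, 31.8 and 36.7 CPM, and rose by 0.97 ± 0.16 (adjusted p = 0.028). Mmd, named for its rise when monocytes become macrophages, was at 36.1, 38.8 and 43.9 CPM and at 65.1, 71.0 and 93.8 CPM, and rose by 0.95 ± 0.16 (adjusted p = 0.034). These genes were thus 1.70 to 1.96 times as abundant with bexarotene, and no treated library reached down to the vehicle range. Rnf145, a sterol-linked ubiquitin ligase, rose from 140 to 148 CPM with vehicle to 194 to 233 CPM with bexarotene (0.55 ± 0.10, adjusted p = 0.044). Engase, a cytosolic enzyme that releases sugar chains from glycoproteins, rose from 24.4 to 26.2 CPM to 35.5 to 47.7 CPM (0.71 ± 0.13, adjusted p = 0.047). Without 1 of vehicle libraries 1 to 3 or of bexarotene library 1 or 3, Rnf145, Engase, Epha2 and Hic1 were no longer called. Hic1 was not called without bexarotene library 2 either. St3gal5 and Mmd were not called without vehicle library 1, 2 or 3 or bexarotene library 3. With upper-quartile scaling factors Engase and Hic1 were not called, and with scaling by library totals alone Mmd, Engase and Hic1 were not. With the stroke groups alone, Rnf145, Engase, Epha2, St3gal5 and Mmd were not called, while Rcan1 and Iigp1, described below, were.

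Frmd6, a FERM domain protein of the Hippo pathway that was named after its values were seen because its level was under the 10 CPM set for named genes, fell by 1.55 ± 0.21 on the log2 scale (adjusted p = 0.0073, edgeR quasi-likelihood). It was at 6.14, 7.13 and 6.62 CPM with vehicle and at 2.57, 2.04 and 2.13 CPM with bexarotene. In aged mice without stroke it was at 4.35, 5.38 and 5.47 CPM with vehicle and 4.94, 5.35 and 4.67 CPM with bexarotene, so that those groups overlapped. After stroke it was not called without vehicle library 2, without bexarotene library 3 or with the stroke groups alone, and its log2 fold change lay between -1.65 and -1.48 in the 16 alternatives.

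**Figure D3:**
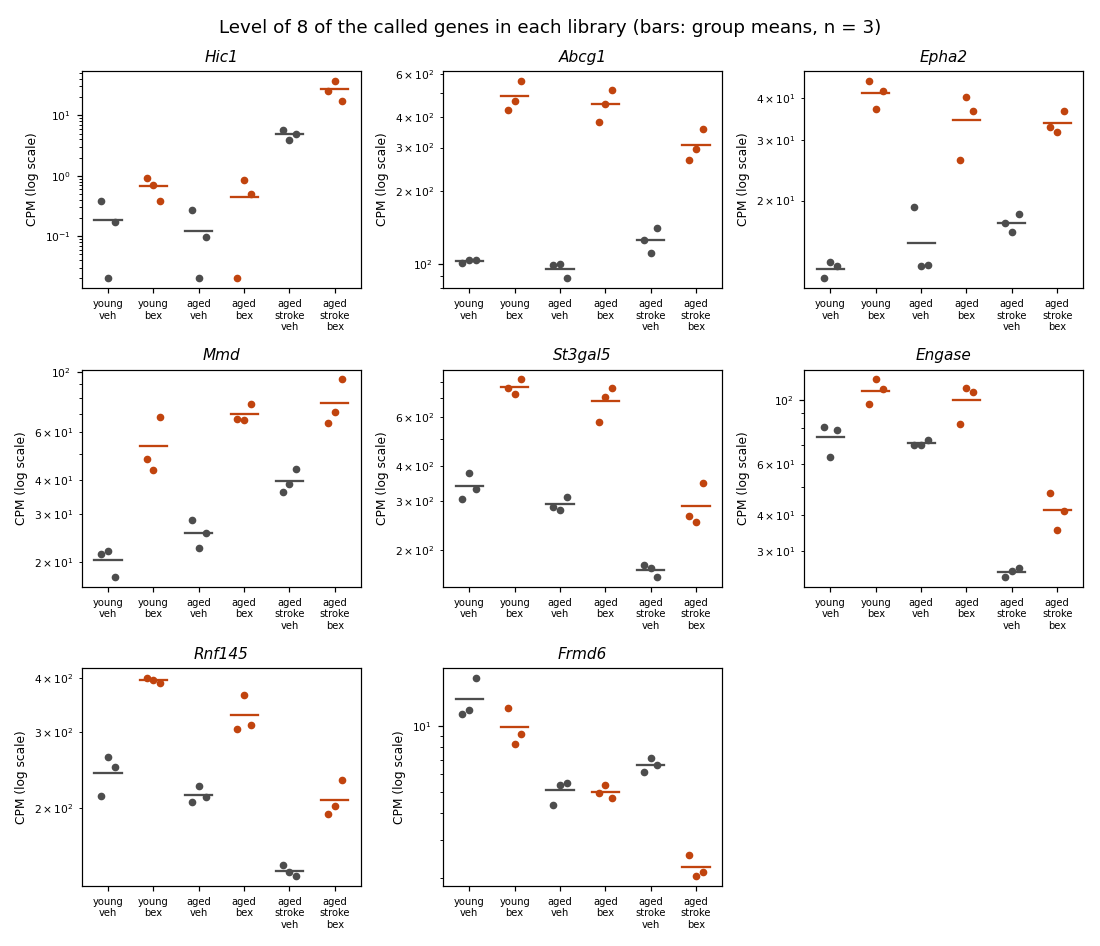
Level in CPM (log scale, with 0 drawn at 0.02) of 8 of the called genes in each of the 18 libraries; grey points are vehicle and orange points bexarotene libraries, and bars are means of 3. In the stroke groups on the right no bexarotene point of any of the 8 genes falls within the vehicle range.

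How large the response was after stroke relative to no stroke was tested as the difference between the bexarotene effects in aged mice with and without stroke. edgeR called 0 of 15528 genes (0%), with 638 (4.11%) at an unadjusted p under 0.05, limma voom called 0, and DESeq2 called 9, each with a lower value after stroke, among them Abcg1, Eepd1, Cd38 and Frmd6. Abcg1 had the lowest p: it went from 87.7 to 100.3 CPM up to 383 to 514 CPM without stroke, and from 112 to 141 CPM up to 268 to 357 CPM with stroke. The difference was -0.95 ± 0.18 (adjusted p = 0.54, edgeR quasi-likelihood). Next were Frmd6 (-1.53 ± 0.30), Hecw2 (at 0 in all aged vehicle libraries, so no fold is given), Tnfsf14 (-3.69 ± 0.77) and Fam43a (-1.49 ± 0.34), with adjusted p of 0.54 to 0.77. Tnfsf14, a cytokine of the tumour necrosis factor family, was at 10.9 to 12.9 CPM in stroke vehicle libraries and at 0.096 to 0.39 CPM in aged vehicle libraries without stroke.

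Cd38, an NAD-consuming enzyme of activated immune cells, separated the settings in another way. It was at 125, 145 and 114 CPM in stroke vehicle libraries and at 90.9, 105 and 189 CPM with bexarotene, where the groups overlapped and the log2 fold change was 0.00 ± 0.25. Without stroke it was at 18.8, 33.1 and 26.6 CPM with vehicle and 95.7, 72.5 and 79.1 CPM with bexarotene. The difference of -1.66 ± 0.37 did not pass the threshold in edgeR's quasi-likelihood test (adjusted p = 0.81). For Eepd1 it was -1.57 ± 0.36 (adjusted p = 0.82), and for Tgm2 -0.97 ± 0.36 and Abca1 -0.38 ± 0.20 (adjusted p = 1 for both).

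The genes called in young mice, whose libraries are shared with neither aged comparison, gave a wider view. Of 65 that were higher with bexarotene in young mice, 61 (93.8%) had a positive log2 fold change after stroke, against 51.0% of all genes tested. In that direction 40 had an unadjusted p under 0.05 (2.95% of all genes) and 6 were called (0.0515% of all genes). The median log2 fold change of the 65 was 0.95 in young mice, whose values chose them, 0.64 in aged mice and 0.39 in aged mice after stroke. Of the 65, 51 had a smaller value after stroke than in aged mice without it. Over all genes tested 8246 of 15528 did, each counted in the direction of its young value. Of 14 that were lower in young mice, 13 had a negative log2 fold change after stroke, with a median of -0.20, against -0.30 in aged mice without stroke. Gpr183, the receptor by which immune cells follow oxysterols, was 1 of these, at 191, 173 and 189 CPM and at 133, 114 and 107 CPM after stroke (-0.64 ± 0.14, adjusted p = 0.16, edgeR quasi-likelihood).

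**Figure D4:**
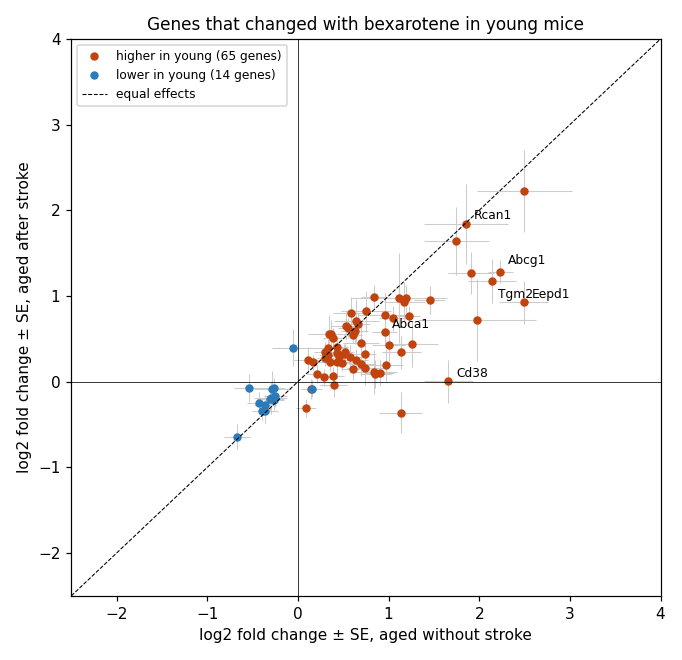
Log2 fold change with its SE in aged mice without stroke (x axis) and after stroke (y axis) for the 79 genes called in young mice, which share no library with either axis; the dashed line marks equal effects. Of the 65 genes higher in young mice, 51 lie below the line, with Cd38 at 1.66 on the x axis and 0.00 on the y axis. Of all 15528 genes tested, 8246 had a smaller value after stroke, each counted in the direction of its young value.

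The authors' deposited table of this comparison lists 96 genes, 43 higher and 53 lower with bexarotene. All 96 were tested here and had the same sign, 86 at an unadjusted p under 0.05, and 9 were called, which is 9.38% of the deposited genes and 100% of those called here. DESeq2 fitted to the 6 stroke libraries alone, an alternative chosen after seeing the data, called 100 genes, 90 of them in the authors' deposited table. The edgeR fit takes its variance from all 18 libraries. In that fit the deposited genes had a median log2 fold change of 0.82 and -1.16, and 19 of the 53 lower ones had a mean under 10 CPM in the higher group; both medians kept these values with the 5 genes that were at 0 in 1 group set to their bound. The groups did not overlap for 95 of the 96 genes, against 11.3% of all genes tested. The deposited table compares these same libraries, so the sign and the lack of overlap of its genes are no separate support. The genes of this table described next, and others outside the fixed rule, were chosen after their values were seen.

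Rcan1, an inhibitor of calcineurin, heads the authors' deposited table, with a log2 fold change of 1.77 there. It was at 58.3, 62.1 and 64.9 CPM with vehicle and at 206, 177 and 280 CPM with bexarotene, which left a wide gap between groups, and its log2 fold change here was 1.84 ± 0.46 (adjusted p = 0.31, edgeR quasi-likelihood). Camkk1, a calcium-dependent kinase, was at 14.9, 19.9 and 11.2 CPM and at 31.9, 34.95 and 43.7 CPM (1.27 ± 0.25, adjusted p = 0.097). Both had positive log2 fold changes in young and aged mice without stroke too. Lfng, which modifies Notch receptors, Il21r, a cytokine receptor, Klf11, a Krüppel-like factor, and Irak2, a kinase of Toll-like receptor signalling, had log2 fold changes of 0.94, 0.65, 0.81 and 0.71 and no overlap between groups.

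On the lower side, Ch25h, which makes the oxysterol 25-hydroxycholesterol, a ligand precursor for Gpr183, was at 144, 138 and 204 CPM with vehicle and 83.8, 65.0 and 73.0 CPM with bexarotene (-1.13 ± 0.30, adjusted p = 0.31, edgeR quasi-likelihood). Il1b, the gene of interleukin-1 beta, was at 321, 404 and 404 CPM and at 162, 268 and 158 CPM (-0.94 ± 0.59, adjusted p = 0.91), whereas the authors' deposited table gives it a log2 fold change of -0.85 with an adjusted p of 4.15e-04. All treated libraries were thus below the vehicle range for both genes, neither of which was called here. Tnf, the gene of tumour necrosis factor, was at 59.8, 42.3 and 63.9 CPM and at 25.4, 38.7 and 40.9 CPM (-0.66 ± 0.23, adjusted p = 0.55, edgeR quasi-likelihood) and is not among the 96. Of 19 tested cytokines and mediators, 1 was higher and 2 were lower at an unadjusted p under 0.05, with a median of -0.11. S1pr2, a sphingosine phosphate receptor, Cebpd, an inflammatory transcription factor, Hcar2, the niacin receptor, and Nrros, a microglial protein that anchors latent TGF-beta, had log2 fold changes of -0.998, -0.83, -0.85 and -0.47 without overlap (adjusted p of 0.12 to 0.40).

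Interferon-induced genes were mostly lower with bexarotene, none past the threshold. Of 21 tested, 19 had a negative log2 fold change (49.0% of all genes did) and 7 an unadjusted p under 0.05 on that side (3.41% of all genes); the median was -0.26. Ifit2, which binds foreign RNA, was at 894, 708 and 593 CPM with vehicle and 329, 555 and 417 CPM with bexarotene (-0.76 ± 0.22, adjusted p = 0.35, edgeR quasi-likelihood). Outside the list, Iigp1, an interferon-induced GTPase, was at 42.1, 43.3 and 38.5 CPM and at 20.8, 22.2 and 20.9 CPM (-0.95 ± 0.26), and Gbp5, a guanylate-binding protein, ranged from 34.4 to 39.2 CPM and from 15.8 to 22.01 CPM (-0.96 ± 0.23). The sum of the list was 6106 to 7775 CPM with vehicle and 4435, 6827 and 5208 CPM with bexarotene, so that bexarotene library 2 lay within the vehicle range. The MHC class I genes, which interferon also induces, were split. Of 14 tested, 6 were higher at an unadjusted p under 0.05 (2.95% of all genes) and none was lower. There were 9 positive and 5 negative values, with a median of 0.15. B2m, their shared light chain, was at 5019, 4165 and 6112 CPM and at 7296, 5964 and 7462 CPM (0.44 ± 0.14), and H2-K1 was at 0.40 ± 0.14. H2-Q6 (0.95 ± 0.30) and H2-Q7 (0.87 ± 0.27) are near-identical copies, and reads may have been split between them.

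Genes of microglial and macrophage states were not called. Of 18 homeostatic microglial genes 1 was higher and 1 lower at an unadjusted p under 0.05, and of 22 disease-associated genes 2 were higher, with medians of 0.05 and 0.15 and no gene of either list without overlap. P2ry12, the receptor by which microglia sense ADP, was at 2939, 2405 and 2171 CPM with vehicle and 2690, 1659 and 2488 CPM with bexarotene (-0.14 ± 0.16), and Tmem119 was at 0.17 ± 0.13. Spp1, osteopontin, was at 6550, 4385 and 11530 CPM and at 5785, 8123 and 6665 CPM, and the wide vehicle range took in all treated libraries (-0.13 ± 0.49). Gpnmb (-0.74 ± 0.83), Lgals3 (-0.21 ± 0.50), Igf1 (-0.05 ± 0.37) and Arg1 (-0.08 ± 0.31), genes of lipid-laden or repair-type macrophages, overlapped as well. Hmox1, the heme-degrading enzyme, was at -0.29 ± 0.18. Irf8, a transcription factor that microglia need, was at 612, 519 and 552 CPM and at 822, 708 and 749 CPM, without overlap (0.44 ± 0.15, adjusted p = 0.51, edgeR quasi-likelihood).

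Of 17 genes of infiltrating monocytes and macrophages, 16 had a negative log2 fold change and the median was -0.28, but the groups overlapped for each of them, and none was called. Their summed level was 9848, 6953 and 10730 CPM with vehicle and 6406, 12450 and 6261 CPM with bexarotene, with library 2 above and libraries 1 and 3 below the vehicle range. Ccr2 was at 1004, 422 and 934 CPM and at 589, 920 and 434 CPM, so that all treated libraries lay within the vehicle range. In bulk RNA, fewer cells of a type and less RNA per cell cannot be told apart. Of 14 genes of border-associated macrophages, which line the meninges and vessels, 4 were lower at an unadjusted p under 0.05 (3.41% of all genes). None was called. Among the 4 were Pf4 (-0.70 ± 0.20), F13a1 (-0.37 ± 0.14) and Mrc1, the mannose receptor. Mrc1 was at 144, 207 and 109 CPM against 111, 85.2 and 132 CPM (-0.48 ± 0.20, adjusted p = 0.68, edgeR quasi-likelihood).

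Transcripts of the choroid plexus, the secretory tissue of the ventricles that neither bead step selects, were lower in the bexarotene libraries. All 9 tested markers had negative log2 fold changes, 8 without overlap (5.48% of all genes were lower without overlap), with a median of -1.94; edgeR called 0 of them, 1 with an unadjusted p under 0.05. Ttr, transthyretin, was at 1988, 594 and 701 CPM with vehicle and at 398, 90.7 and 478 CPM with bexarotene (-1.76 ± 1.07), and Kl, klotho, was at 79.4, 24.5 and 36.1 CPM and at 14.9, 3.30 and 17.4 CPM (-1.95 ± 1.00). The summed level was 940 to 3256 CPM and 143 to 729 CPM, highest in vehicle library 1 and lowest in bexarotene library 2. With the mean log2 CPM of these markers as a covariate in the edgeR model, chosen after seeing the data, 12 genes were called, 6 of the 9 among them; Rnf145, Engase and Hic1 were not, with log2 fold changes of 0.49, 0.71 and 2.31 against 0.55, 0.71 and 2.44 without the covariate. The log2 fold change of Abcg1 was then 1.25 and that of Frmd6 -1.55. The lower genes of the authors' deposited table had a median of -0.92 in place of -1.16, and 20 of the 53 moved by over 1.5 times, such as Col8a1, a collagen gene (from -2.76 to -1.21), and Cntn1, a cell adhesion gene (from -2.79 to -1.16). Ch25h, Il1b and Gbp5 were at -1.29, -1.31 and -0.92 with the covariate.

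**Figure D5:**
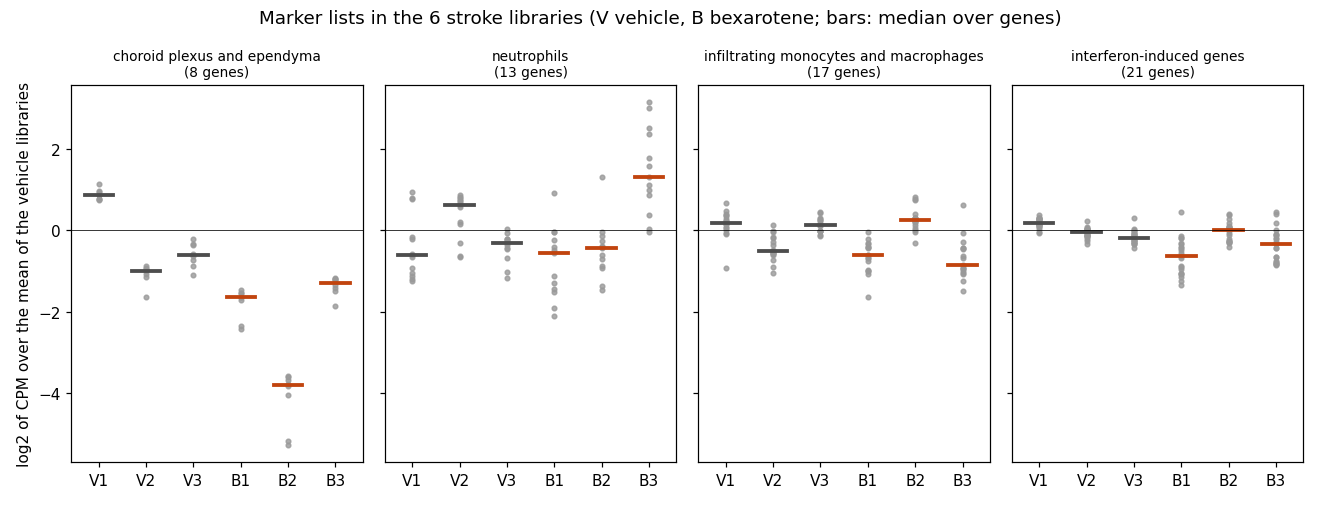
Log2 of CPM over the mean of the 3 vehicle libraries (y axis) in each stroke library (x axis) for 4 lists; grey points are genes with a vehicle mean of at least 3 CPM, and bars are medians over genes. Choroid plexus markers lie lowest in bexarotene library 2 and highest in vehicle library 1, neutrophil markers highest in bexarotene library 3, and the monocyte and interferon lists differ among libraries of 1 group.

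Neutrophil transcripts remained after the Ly6G depletion, and 1 treated library stood apart. The summed level of 16 markers was 1146, 2751 and 1540 CPM with vehicle and 1068, 1314 and 3919 CPM with bexarotene, highest in bexarotene library 3. Ngp, a granule protein of immature neutrophils, was at 231 CPM there and at 17.6 to 49.3 CPM in the other 5 libraries. None of the 16 was called. Without that library 2 genes were called in the whole comparison, Abcg1 among them, and the part of neutrophil transcripts in the other calls was not tested. Of 11 genes of T and NK cells, 3 were lower at an unadjusted p under 0.05 (3.41% of all genes). The summed level of the 11 was only 25.9 to 70.4 CPM. The T cell receptor genes Cd3e, Cd3d and Cd3g were too low to be tested.

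Growth and repair genes were uneven. Vegfa, the main angiogenic factor, was at 41.7, 16.6 and 42.1 CPM with vehicle and at 98.6, 176 and 41.9 CPM with bexarotene, so that library 3 lay within the vehicle range (1.65 ± 0.48, adjusted p = 0.41, edgeR quasi-likelihood). Pdgfa, a growth factor for oligodendrocyte precursors, was at 17.8, 13.8 and 20.3 CPM and at 28.4, 26.8 and 27.0 CPM (0.66 ± 0.22), and Hbegf, an EGF receptor ligand, was at 0.44 to 1.05 CPM and 1.91 to 2.83 CPM (1.64 ± 0.40, adjusted p = 0.23). Of 21 tested genes of alternative activation and repair, 3 were higher and 2 lower at an unadjusted p under 0.05 (2.95% and 3.41% of all genes). Their median was 0.11. Of 26 phagocytic receptors 1 was on each side, with a median of 0.02.

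The genes that differ with age were set against this response. Of 196 genes (1.26%) higher in aged than in young vehicle libraries without stroke, 113 had a positive and 83 a negative log2 fold change with bexarotene after stroke, with a median of 0.06, and none was called (all genes: 51.0% positive, median 0.00); 22 were higher and 17 lower at an unadjusted p under 0.05. Of 68 (0.438%) that were lower with age, 29 were positive and 37 negative, with a median of -0.04, and 1 was called, Frmd6, at -1.39 on the log2 scale in aged against young vehicle libraries. With the choroid plexus covariate both medians turned, to -0.02 and 0.02. The age comparison shares no library with the stroke groups.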

How the data were processed

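The authors deposited whole-number counts per gene for 18 libraries, with no normalization. The submitters' processing notes name the build GRCm39 and, with no stated role, R 4.4.2, GATK, STAR 2.7.10a and Trimmomatic 0.40. The annotation and strand setting of the counting are not stated, so genes that overlap or are near-identical copies may share reads. For their own comparison of the stroke groups the authors deposited a table with the mean normalized signal, the log2 fold change and its SE, and the raw and adjusted p-value of each listed gene, which was read as given. Symbols came from GENCODE M21 and matched 52029 of 57010 genes. The labels call the libraries biological replicates. Replicates of the stroke groups differed by more than counting noise (chi-square per degree of freedom 19.6 to 36.2).

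Genes were filtered with filterByExpr (15528 left) and scaled by TMM (factors 0.937 to 1.05), and a robust quasi-likelihood model over the 6 groups of all 18 libraries was fitted with edgeR 4.0.16 in R 4.3.3 (residual degrees of freedom 12, common dispersion 0.195 as a square root). p-values were adjusted by Benjamini-Hochberg (BH) over all genes tested, and a gene was called at an adjusted p under 0.05. The SE was derived from the F statistic. CPM are scaled by the total over tested genes and the TMM factor; the floor of 3 counts is relative to the plain library total and covers counting error only. The model code was tested on simulated data. Alternatives were DESeq2 1.42.0, limma 3.58.1 (voom), other scalings and filters, the compared groups alone, a replicate block and leaving out each library; DESeq2 on the 6 libraries and the choroid plexus covariate were added after seeing the data.

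Named genes were up to 15 called genes per sign, ranked by fold change, that reached 10 CPM in their higher group without overlap; from lists with 2 or more called members, the 3 of lowest p at most; the 5 genes with the lowest p for the difference with stroke; and a fixed set of receptor, microglial and inflammatory genes. A few of the genes so chosen are not reported here. The members and the 38 lists were chosen with earlier results of these data known, and lists are described by counts and medians without a test.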

Additional observations from a re-analysis of the deposited data

How the results depend on the processing

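The count of 9 called genes was 59 with DESeq2, 29 with limma voom, 419 without a filter on low counts, 5 with the stroke groups alone, 100 with DESeq2 on those groups and 1 to 17 without single libraries. The numbers of stroke libraries share no stated animal, day or batch, and same-numbered libraries did not deviate together (correlations 0.0372, -0.0615 and -0.113); with the replicate block 20 genes were called, 16 of them in the authors' deposited table, and 4 list members. All 9 genes were among those called by DESeq2, limma voom, without a filter, with the block and at a mean of at least 1 CPM. The 9 deposited genes called were 42, 27, 91, 5 and 90 under DESeq2, limma voom, no filter, the stroke groups alone and DESeq2 on those groups, and 1 to 10 without single libraries. The 2 called list members other than the list picked from earlier results were 10, 6 and 75 with DESeq2, limma voom and no filter, 18 with DESeq2 on the stroke groups, 1 with upper-quartile factors and with the choroid plexus covariate, and 1 to 5 without single libraries. The difference with stroke had 0 calls in edgeR, 9 in DESeq2, 27 in DESeq2 on the compared groups and 256 without a filter. The median of the genes lower with age was 0.0205 with the covariate and -0.0382 to 0.0609 without single libraries, the highest without vehicle library 1. That of the genes higher with age was -0.0233 with the covariate and 0.0621 without it. The cause of these shifts was not tested.

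Signs turned for some genes. With the covariate, 2 of the 53 lower genes of the authors' deposited table turned, Ace from -0.94 to 0.08 and Stk39 from -1.60 to 0.03. Cd38 was at -0.0014 without a filter and in DESeq2 on the compared groups, -0.0295 with the block, -0.0667 in limma voom, -0.0105 by library totals, -0.0095 with the groups alone and -0.0336 with the covariate. With the covariate Srebf1 was at -0.0141, Apoe at -0.0819 and Ttr, itself in the covariate, at 0.1003; Igf1 was at 0.1036 in limma voom. Without single libraries, the ranges that crossed 0 were -0.3799 to 0.2153 for Cd38, -0.0986 to 0.1504 for Srebf1, -0.4033 to 0.3512 for Igf1, -0.2584 to 0.0479 for P2ry12, -0.7757 to 0.0995 for Lgals3, -0.2139 to 0.0835 for Cd36, -0.8308 to 2.9535 for Pdk4, -0.0057 to 0.1423 for Rxrb, -0.536 to 0.2662 for Arg1, -0.386 to 0.3269 for Spp1 and -0.6112 to 2.3156 for Ngp. With 3 libraries per group, changes of the size of the SE (1.07 for Ttr, 1.15 for Pdk4) were not detectable.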

Other observations

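Some lists held no called gene but leaned to one side after stroke. All 32 ribosomal protein genes had positive log2 fold changes with bexarotene, with a median of 0.12, led by Rps27 (0.26 ± 0.11) and Rpl32 (0.25 ± 0.11). Of 25 cell division genes 21 were positive, with a median of 0.23. Their summed level was 1590, 2577 and 2352 CPM with vehicle and 2423, 2411 and 2557 CPM with bexarotene, so that vehicle library 1 was low and vehicle library 2 above all treated libraries. Birc5, which is needed for chromosome segregation, was at 60.5, 82.7 and 85.2 CPM with vehicle and at 107, 106 and 104 CPM with bexarotene (0.47 ± 0.17, adjusted p = 0.57, edgeR quasi-likelihood). All 18 immediate early genes, which rise within minutes of a stimulus or of cell handling, were negative, with a median of -0.29, and Klf6 was at 368, 330 and 350 CPM and at 187, 270 and 284 CPM (-0.50 ± 0.14). All 14 heat shock genes were negative too, with a median of -0.13. Without stroke the medians in aged and young mice were -0.67 and -0.54 for heat shock genes and 0.33 and 0.05 for immediate early genes. They were -0.09 and 0.03 for ribosomal protein genes and 0.14 and 0.12 for cell division genes. Genes of a list vary together within a library, so the number on one side is no count of independent results; the median over all genes was 0.00, and 51.0% were positive.

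Of 21 tested genes of cholesterol synthesis and uptake, 17 were negative and none was called, with a median of -0.15. Lower without overlap were 3 of the 21, as were 5.48% of all genes. Ch25h, a gene of the authors' deposited table, was among the 3. Chemokine genes had a median of -0.17. Ccl12 was at 621, 1235 and 750 CPM with vehicle and at 447, 579 and 638 CPM with bexarotene (-0.65 ± 0.23), and Ccl8 was at 39.1, 68.7 and 44.0 CPM and at 25.2, 25.9 and 32.2 CPM (-0.86 ± 0.40, adjusted p = 0.78, edgeR quasi-likelihood). Mmp2, a gelatinase of matrix remodelling, was at 34.4, 23.03 and 34.7 CPM and at 46.7, 37.7 and 63.1 CPM (0.68 ± 0.19).

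The choroid plexus level, as a mean log2 CPM of its markers, was highest in the library numbered 1 in every group other than stroke with bexarotene: 5.29 in aged vehicle, 4.61 in aged bexarotene and 5.41 in aged stroke vehicle libraries. In stroke with bexarotene it was 2.91, 0.78 and 3.27. The labels do not say what the numbers stand for.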
